A study of Mus musculus with 62 samples.

Results

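The genes described here are 10 genes widely used to follow macrophages in mouse tissue: Adgre1, Cd68, Csf1r, Lyz2, Mrc1, Cd163, Tyrobp, Fcer1g, Pf4 and Retnla. They were chosen by symbol, with earlier results of these data known. All 10 were found among the 47643 genes of the deposited expression table. The table gives TPM, a length-corrected relative abundance of transcripts, in 62 RNA-seq libraries of soleus, a small postural muscle of the hindlimb, and all 10 genes were among the 13529 that reached 1 TPM in at least 5 libraries and were tested. The female mice were 2 months old and had been injected with cachectic melanoma cells (CAC), with non-cachectic melanoma cells (NCAC) or with a mock injection (Con), and muscle was taken 2, 4, 6 or 8 weeks later. The 12 groups had 5 libraries apiece, apart from the 7 of CAC at 8 weeks. The labels do not name the melanoma lines, and they disagree on the host: the sample entries give the strain as C57BL6/J and the design text gives NCI Ath/nude mice. The extraction text shared by all samples also speaks of LLC cells and of 3 weeks, which match none of the groups, and the groups here follow the sample entries. An athymic host keeps macrophages, neutrophils and mast cells but has few mature T cells. The T cell marker Cd3e reached at most 1.21 TPM in any library. That value does not settle which host label is right, since no muscle of a known host was measured here.

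Macrophages live in skeletal muscle between the fibres and in its connective tissue, where they take up debris and serum proteins and support repair. They depend on the receptor encoded by Csf1r, whose ligands are made by neighbouring cells, and they read immune complexes and lipids through small adaptors that carry an immunoreceptor tyrosine-based activation motif (ITAM). The cytokines IL-4 and IL-13, acting through the receptor chain Il4ra and the factor STAT6, induce a programme in mouse macrophages of which Retnla is a classic member. Mrc1 is also raised by that programme in mouse cells, and Cd163 marks resident macrophages that clear haemoglobin bound to haptoglobin.

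Of the 10 genes, Adgre1 (chromosome 17, 57358691 to 57483527, plus strand), Cd68 (chromosome 11, 69664213 to 69666153, minus strand), Lyz2 (chromosome 10, 117277331 to 117282321, minus strand), Cd163 (chromosome 6, 124304656 to 124330527, plus strand), Tyrobp (chromosome 7, 30413760 to 30417585, plus strand), Fcer1g (chromosome 1, 171229572 to 171234365, minus strand), Pf4 (chromosome 5, 90772435 to 90773383, plus strand) and Retnla (chromosome 16, 48842551 to 48844461, plus strand) share no bases with another annotated gene. Positions are those of the mouse GRCm38 annotation used here. Mrc1 (chromosome 2, 14229392 to 14332057, plus strand) holds the microRNA gene Mir511.

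The upstream sequences of Mrc1, Cd163 and Retnla are shown because these 3 genes differed relative to Csf1r in CAC muscle, although not in every comparison when Tyrobp was the denominator. Each stretch runs from 250 bases before the RefSeq transcription start to 50 bases after it on the plus strand of GRCm38.p6 (chr2:14229164-14229463 for Mrc1, chr6:124304401-124304700 for Cd163 and chr16:48842359-48842658 for Retnla). Capitals mark matches, on either strand, to the PU.1 core GAGGAA, the STAT6 pattern (TTC and GAA with 4 bases between), the shorter STAT pattern (TTC and GAA with 3 bases between) and the C/EBP pattern TTNNGNAA.
Mrc1: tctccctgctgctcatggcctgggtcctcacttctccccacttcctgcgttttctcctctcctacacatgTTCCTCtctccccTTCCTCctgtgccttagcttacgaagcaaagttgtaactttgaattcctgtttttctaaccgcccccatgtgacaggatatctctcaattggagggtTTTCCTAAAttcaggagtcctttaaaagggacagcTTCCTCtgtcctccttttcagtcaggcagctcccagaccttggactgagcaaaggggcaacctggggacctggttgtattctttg
Cd163: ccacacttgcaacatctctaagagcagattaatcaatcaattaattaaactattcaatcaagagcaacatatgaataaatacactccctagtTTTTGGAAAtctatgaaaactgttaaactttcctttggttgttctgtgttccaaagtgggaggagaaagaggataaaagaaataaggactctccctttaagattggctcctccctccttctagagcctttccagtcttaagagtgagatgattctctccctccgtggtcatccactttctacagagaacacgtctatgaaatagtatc
Retnla: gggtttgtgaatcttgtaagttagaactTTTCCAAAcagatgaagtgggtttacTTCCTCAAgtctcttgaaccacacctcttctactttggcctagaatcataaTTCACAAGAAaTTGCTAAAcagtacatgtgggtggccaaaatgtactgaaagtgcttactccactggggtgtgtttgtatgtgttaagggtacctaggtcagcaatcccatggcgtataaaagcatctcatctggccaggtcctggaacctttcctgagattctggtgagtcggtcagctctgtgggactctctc
The STAT6 letters occurred once in the Retnla stretch, at -145 to -136 from the start, and in none of the other 6 promoters that the RefSeq table holds for these genes (Cd68, Lyz2, Mrc1, Cd163, Fcer1g and Pf4). Of all 32851 promoters of the same length, 6.95% held those letters and 8.3% held the shorter STAT pattern, which none of the 7 promoters held. The PU.1 letters, present in 28.3% of promoters, occurred at 3 places in Mrc1 and at 1 place in Retnla, where they overlapped a C/EBP match. C/EBP letters, present in 40.7% of promoters, were found in all 3 stretches. A match of letters is a description and does not show that a factor binds.

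In mock-injected muscle between 2 and 6 weeks these genes were expressed at levels from about 1 TPM (Adgre1, 1.16 ± 0.134 TPM in Con at 6 weeks, SD, n = 5) to much higher ones (Lyz2, 64.9 ± 6.77 TPM, and Retnla, 46.7 ± 10.3 TPM in the same libraries). Among muscle markers, Acta1 lay between 11370 and 52871 TPM over all libraries, and the slow-fibre genes Myh7 and Tnnt1, which mark soleus among other slow muscles, between 453 and 9048 TPM and between 1666 and 7421 TPM. Several of the 10 genes are also expressed outside macrophages: Lyz2 in neutrophils, Fcer1g in mast cells, Pf4 in platelets and Retnla in adipose tissue. The summed TPM of 8 platelet and megakaryocyte markers was 2.94 to 7.35 in CAC and 2.77 to 3.97 in Con at 8 weeks, and 1.57 to 3.07 in CAC and 1.16 to 1.90 in Con at 6 weeks, and the part of platelets in the values of Pf4 was not tested. TPM values are relative within a library and keep no read depth, so the precision of a single value cannot be computed from counts.

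All 10 genes were higher at 8 weeks than at 6 weeks in CAC, in NCAC and in Con muscle, on the log2(TPM + 1) scale, by limma with Benjamini-Hochberg adjustment over all genes tested and a threshold of adjusted p = 0.05. The differences ran from 1.42 for Cd68 to 3.08 for Retnla in CAC, from 1.76 for Cd68 to 3.72 for Lyz2 in NCAC, and from 2.31 for Cd163 to 4.13 for Retnla in Con. All genes tested moved too: 32.2% were higher and 6.77% lower in CAC, 31.9% and 12.7% in NCAC, and 54.1% and 9.65% in Con at 8 against 6 weeks. The median of the 10 genes was 2.36 in CAC, 2.67 in NCAC and 3.03 in Con, against medians over all genes of 0.18, 0.15 and 0.29, and rescaling each library by the median of its gene ratios left all 10 genes called in each treatment. In NCAC, the call of Cd68 ended on leaving out replicate 1, 3 or 5 of 6 weeks or replicate 1, 4 or 5 of 8 weeks, at adjusted p of 0.0508 to 0.0584.

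The 17 libraries of 8 weeks lay above all 45 earlier libraries for Adgre1, Lyz2, Tyrobp, Fcer1g and Pf4, 16 of them did so for Csf1r, 15 for Mrc1 and 12 for Cd163. Only 8 did so for Cd68, since NCAC replicate 4 of 6 weeks reached 30.5 TPM, and 10 did so for Retnla, since the same library reached 218 TPM. Markers of other cell types also moved with week 8 in Con muscle. Against 6 weeks, 8 of 8 mast cell markers, 7 of 8 fibro-adipogenic progenitor markers and 6 of 8 adipocyte markers were higher. Of 6 fibre markers, 3 were lower. These counts stood beside 54.1% of all genes higher and 9.65% lower. After rescaling those shares were 32.4% and 30.9%, and these lists were not counted in that setting. The summed TPM of the fibro-adipogenic markers was 2688 to 5829 in Con at 8 weeks, against 609 to 855 in Con at 6 weeks. The share of TPM from the mitochondrial genome was 20.9% to 39.8% at 8 weeks, against 27.8% to 43.2% at earlier weeks. The part of these shifts in the macrophage values was not tested, and in bulk muscle more cells of a type cannot be told apart from more RNA per cell. Any difference in dissection or processing between the weeks of collection cannot be told apart from week itself.

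**Figure D1:**
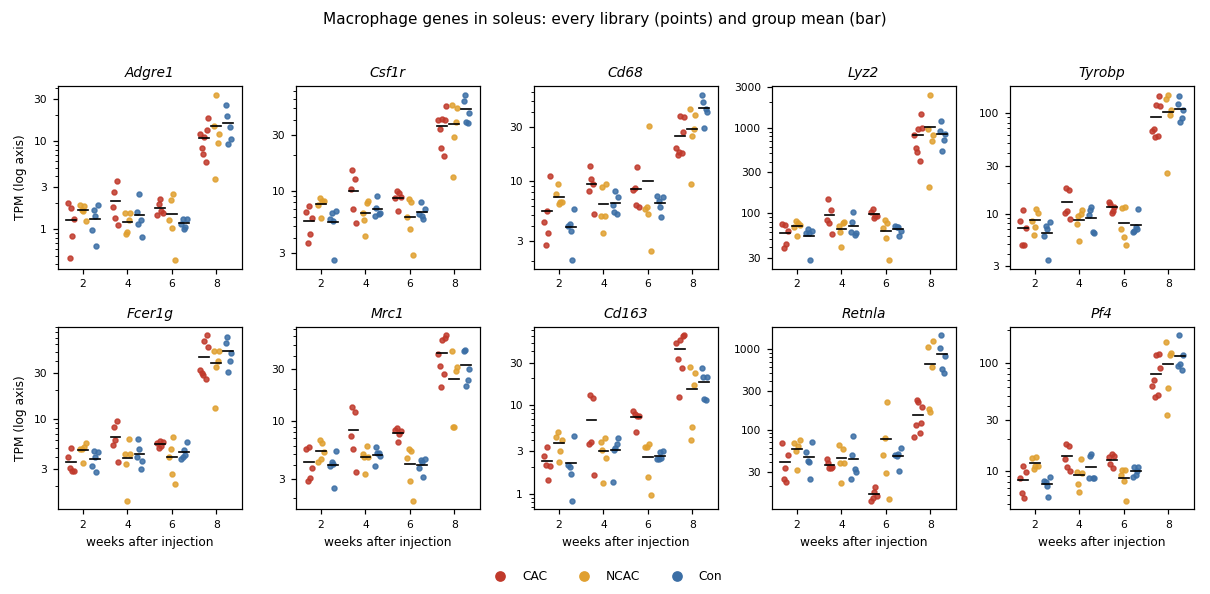
TPM of the 10 macrophage genes (log axis) in each library, by week and treatment; points are libraries and bars are group means. All 10 genes sit higher at 8 weeks than at 6 weeks in each treatment, and Retnla in CAC at 6 weeks (13.1 to 19.5 TPM) sits below every Con library of that week (30.2 to 58.5 TPM).

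At 2 and 4 weeks none of the 10 genes differed between treatments by limma at the adjusted threshold. At 2 weeks the shares of all genes called were 0% for CAC against Con, 0.0296% for CAC against NCAC and 0.00739% for NCAC against Con, and at 4 weeks they were 0.155%, 0.2% and 0% in the same order. At an unadjusted p under 0.05, 0 of the 10 genes passed for CAC against Con at 2 weeks, 4 for CAC against NCAC and 5 for NCAC against Con, and at 4 weeks 0, 2 and 0 did so, beside 1260, 2356, 1616, 2222, 2967 and 468 of all genes in those 6 comparisons. At 2 weeks NCAC was the higher group. Of the 10 genes, 0 were higher in CAC than in NCAC (median log2 difference -0.39), and 10 were higher in NCAC than in Con (median 0.41). At 4 weeks 9 of the 10 were higher in CAC than in NCAC (median 0.52). NCAC against Con at 2 weeks gained calls for Cd68 (adjusted p = 0.0412) and Pf4 (adjusted p = 0.0314) on leaving out Con replicate 5. At 4 weeks the CAC libraries were uneven: Cd163 stood at 3.66, 12.9, 3.80, 11.8 and 1.63 TPM in CAC, against 1.34, 3.10, 3.29, 3.63 and 4.18 TPM in Con. Replicates 2 and 4 were well above the Con libraries and the other CAC libraries overlapped them.

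At 6 weeks the macrophage genes of CAC muscle moved in opposite directions. Against Con, 7 of 10 were higher and 1, Retnla, was lower, beside 21.8% of all genes higher and 3.87% lower by limma at the adjusted threshold. The median of the 10 was 0.34, against 0.16 over all genes. Rescaling by the median gene ratio brought that all-gene median to 0.01 and the shares called to 10.3% higher and 10.3% lower, and it left 3 of the 10 genes higher and Retnla lower. The genes that kept their calls were Cd163, Mrc1, Lyz2 and Retnla.

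The scavenger receptors rose most among the 10 genes. Cd163, the receptor for haptoglobin-haemoglobin complexes, stood at 8.56, 7.96, 4.89, 7.52 and 7.42 TPM in CAC at 6 weeks, against 2.43, 2.46, 2.93, 2.51 and 3.02 TPM in Con. Every CAC library was above every Con library, and the log2 difference was 1.16 (SE 0.13, limma adjusted p = 9.4e-05). Mrc1, the mannose receptor, stood at 8.29, 8.81, 6.54, 7.72 and 8.19 TPM in CAC, against 3.76, 4.46, 4.31, 3.13 and 4.55 TPM in Con. These groups did not overlap either, with a log2 difference of 0.82 (SE 0.11, limma adjusted p = 0.000351). NCAC values lay near those of Con: Cd163 read 3.32, 3.38, 1.54, 3.61 and 0.976 TPM there, and CAC exceeded it by 1.27 for Cd163 (SE 0.23, limma adjusted p = 0.00284) and 0.87 for Mrc1 (SE 0.21, limma adjusted p = 0.012). All 5 CAC libraries lay above all 5 NCAC libraries for both receptors.

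Retnla, which encodes a secreted resistin-like protein, went the other way. It stood at 13.1, 14.1, 16.6, 19.5 and 15.2 TPM in CAC at 6 weeks, against 48.0, 46.9, 50, 30.2 and 58.5 TPM in Con. The 5 CAC libraries were close together and all below the lowest Con library, and the log2 difference was -1.50 (SE 0.16, limma adjusted p = 7.41e-05). NCAC libraries were widely spread, at 48.2, 79.7, 28.8, 218 and 13.7 TPM, with replicate 4 far above the rest and replicate 5 inside the CAC range. The difference of CAC from NCAC, -1.65 (SE 0.53, limma adjusted p = 0.0409), rested on all libraries together: leaving out any of the 5 CAC replicates or NCAC replicate 1, 2 or 4 gave adjusted p of 0.052 to 0.0911.

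The lineage genes and adaptors differed less at 6 weeks. Lyz2, which encodes a lysozyme, stood at 104, 113, 88.2, 91.9 and 94.0 TPM in CAC, against 71.0, 69.2, 68.3, 54.7 and 61.4 TPM in Con. The groups did not overlap and the log2 difference was 0.59 (SE 0.10, limma adjusted p = 0.00147). Tyrobp, the ITAM adaptor DAP12, was higher by 0.54 (SE 0.13, limma adjusted p = 0.0123), although Con replicate 5 at 11 TPM lay within the CAC range of 10.2 to 13 TPM. Csf1r was higher by 0.35 (limma adjusted p = 0.0426), Adgre1, which encodes F4/80, by 0.34 (adjusted p = 0.0232) and Pf4, a chemokine, by 0.33 (adjusted p = 0.0365). Cd68, a lysosomal glycoprotein, read 8.47 ± 2.94 TPM in CAC and 6.42 ± 1.04 TPM in Con (SD, n = 5 each; limma adjusted p = 0.201), and Fcer1g, the Fc receptor gamma chain, read 5.50 ± 0.351 TPM in CAC and 4.49 ± 0.754 TPM in Con (adjusted p = 0.0803).

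The smaller calls at 6 weeks were not stable. Under the rescaling the limma adjusted p was 0.114 for Adgre1, 0.286 for Csf1r, 0.0556 for Tyrobp and 0.391 for Pf4. Csf1r lost its call without CAC replicate 1, 2 or 4 or Con replicate 1, 3, 4 or 5 (adjusted p of 0.0591 to 0.0996), Pf4 without CAC replicate 1 or 3 or Con replicate 1, 2, 3 or 4 (0.0518 to 0.0854) and Adgre1 without CAC replicate 2 or Con replicate 3 or 4 (0.0529 to 0.0593). Fcer1g gained one without Con replicate 5 (adjusted p = 0.0338). Cd163, Mrc1, Lyz2, Tyrobp and Retnla were called whichever single library was left out, but with all 62 libraries in the fit Lyz2 (adjusted p = 0.198) and Tyrobp (0.168) were not, nor were Adgre1 (0.411), Csf1r (0.340) and Pf4 (0.363).

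Against NCAC at 6 weeks, CAC was higher in 4 of the 10 genes, Cd163, Mrc1, Lyz2 and Pf4, and lower in Retnla, beside 18.8% of all genes higher and 3.42% lower (11.5% and 11% after rescaling). Lyz2 was higher by 0.75 (SE 0.23, limma adjusted p = 0.0375) and Pf4 by 0.54 (SE 0.16, limma adjusted p = 0.0278), and both groups of libraries were separate for each gene. Rescaling ended both calls (adjusted p = 0.104 for Lyz2 and 0.124 for Pf4), as did the fit of all 62 libraries (0.0899 and 0.104). Leaving out CAC replicate 1, 2 or 4 or NCAC replicate 3 did so for Lyz2 (adjusted p of 0.0655 to 0.0833) and leaving out CAC replicate 1 or 3 for Pf4 (0.0518 to 0.0674). Without NCAC replicate 2, Csf1r (adjusted p = 0.0474) and Tyrobp (0.0366) passed, and without NCAC replicate 4, Tyrobp (0.0336) and Fcer1g (0.0341) did. The call of neither Cd163 nor Mrc1 was lost on leaving out a library. NCAC against Con at 6 weeks gave no call among the 10 genes, beside 0.00739% of all genes, and at an unadjusted p under 0.05 it gave 0 of the 10 and 380 of all genes. The comparisons of CAC with Con and with NCAC share the CAC libraries.

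**Figure D2:**
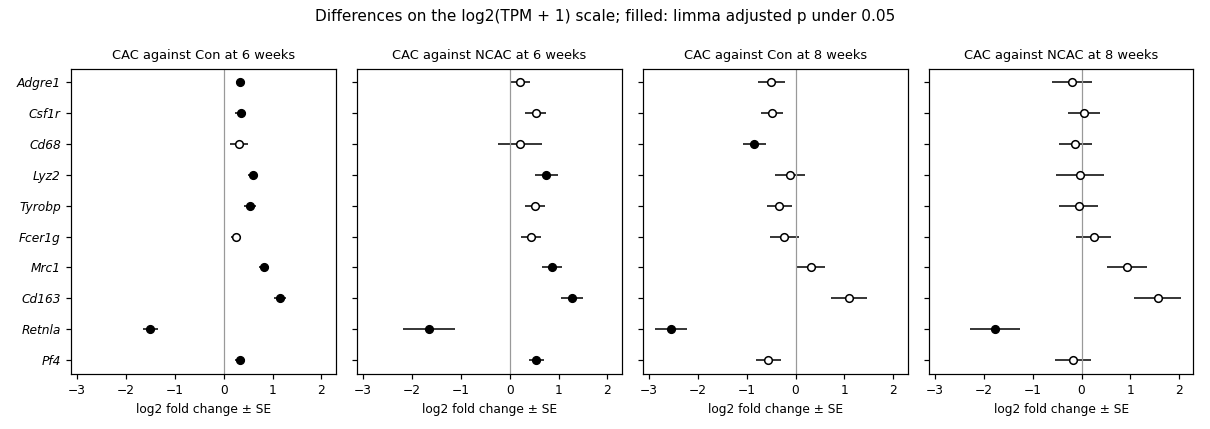
Differences in log2(TPM + 1) of the 10 genes between CAC and Con and between CAC and NCAC, at 6 and at 8 weeks; error bars are SE and filled points have a limma adjusted p under 0.05. Cd163 and Mrc1 lie right of zero and Retnla left of it in all 4 comparisons.

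The change within CAC muscle was seen over time as well. Between 6 and 2 weeks, 7 of the 10 genes were higher in CAC at 6 weeks and Retnla was lower, beside 9.39% of all genes higher and 4.09% lower (9.37% and 8.35% after rescaling). Cd163 averaged 7.27 ± 1.41 TPM at 6 weeks and 2.32 ± 0.731 TPM at 2 weeks (SD, n = 5 each; log2 difference 1.33, SE 0.17, limma adjusted p = 0.000759). Retnla averaged 15.7 ± 2.49 TPM at 6 weeks and 39.3 ± 19.0 TPM at 2 weeks (log2 difference -1.16, SE 0.26, limma adjusted p = 0.0126). For both genes no library of one week lay within the range of the other. Mrc1 (0.80), Lyz2 (0.77), Tyrobp (0.66), Pf4 (0.60), Csf1r (0.59) and Fcer1g (0.53) made up the rest of the calls.

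Of those calls, rescaling ended 3, with limma adjusted p of 0.0560 for Csf1r, 0.0587 for Tyrobp and 0.0683 for Pf4. The same 3 genes lost their calls on leaving out single libraries: Csf1r without CAC replicate 2, 4 or 5 of 2 weeks or 1, 2 or 4 of 6 weeks (0.0573 to 0.0843), Tyrobp without the same libraries (0.0541 to 0.0857) and Pf4 without replicate 1, 2 or 4 of 2 weeks or 1, 2 or 3 of 6 weeks (0.0515 to 0.0769). Cd68 gained a call without CAC replicate 5 of 2 weeks (0.0281). With all 62 libraries in the fit Cd163 alone passed, and the adjusted p was 0.0770 for Retnla, 0.0644 for Mrc1, 0.115 for Lyz2, 0.188 for Fcer1g, 0.116 for Csf1r and Tyrobp and 0.104 for Pf4.

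The difference between CAC and Con did not itself differ between 6 and 2 weeks for any of the 10 genes at the adjusted limma threshold, where 2.5% of all genes passed. At an unadjusted p under 0.05, 3 of the 10 and 2387 of all genes passed. Cd163 passed the adjusted threshold without CAC replicate 3 of 2 weeks (adjusted p = 0.0341), without CAC replicate 3 of 6 weeks (0.0313) and without Con replicate 4 of 2 weeks (0.0166), and Mrc1 passed without CAC replicate 3 of 2 weeks (0.0341) or Con replicate 4 of 2 weeks (0.0309).

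Against Con at 8 weeks, none of the 10 genes was higher in CAC and 2, Retnla and Cd68, were lower, beside 6.37% of all genes higher and 6.05% lower (6.39% and 9.3% after rescaling). The median of the 10 was -0.41, against 0.00 over all genes. Retnla ranged from 81.6 to 235 TPM with a median of 121 TPM in the 7 CAC libraries, against 1028, 1499, 562, 506 and 818 TPM in Con. The highest CAC library stayed below the lowest Con library, and the log2 difference of -2.54 (SE 0.33, limma adjusted p = 0.00126) remained past the threshold on leaving out any single library. Cd68 ranged from 16.9 to 37.6 TPM with a median of 19.7 TPM in CAC, against 57.3, 49.9, 29.1, 43.2 and 40.8 TPM in Con. Its groups overlapped through Con replicate 3, and its difference of -0.85 (SE 0.23, limma adjusted p = 0.033) lost the call without CAC replicate 1, 2 or 5 or Con replicate 1, 2, 4 or 5 (adjusted p of 0.0590 to 0.0818).

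In the fit of the compared groups Cd163 and Mrc1 did not pass against Con at 8 weeks, and their values spread widely among the CAC libraries. Cd163 ranged from 12.4 to 61.1 TPM with a median of 49.7 TPM in CAC, against 25.8, 20.4, 11.8, 11.3 and 20.7 TPM in Con. In 6 of 7 CAC libraries it exceeded every Con library, and replicate 3 at 12.4 TPM did not. The log2 difference was 1.09 (SE 0.36, limma adjusted p = 0.0653), and without CAC replicate 3, in which erythroid markers summed to 27333 TPM, it was 1.35 (adjusted p = 0.00549). With all 62 libraries in the fit Cd163 passed as well (adjusted p = 0.0149). Mrc1 ranged from 20.5 to 61.4 TPM with a median of 41.7 TPM in CAC, against 43.9, 45.1, 21.3, 23.8 and 30.3 TPM in Con, and the groups overlapped (log2 difference 0.32, SE 0.29, limma adjusted p = 0.508).

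The other genes gave overlapping groups at 8 weeks. Csf1r averaged 35.6 ± 11.1 TPM in CAC (SD, n = 7) and 49.0 ± 12.3 TPM in Con (SD, n = 5), with a limma adjusted p of 0.184. Pf4 averaged 79.8 ± 30.3 TPM in CAC and 116 ± 38.7 TPM in Con (limma adjusted p = 0.175), and Adgre1 10.9 ± 4.28 TPM in CAC and 15.9 ± 6.81 TPM in Con (limma adjusted p = 0.272). Lyz2, Tyrobp and Fcer1g had log2 differences of -0.12, -0.33 and -0.23 with limma adjusted p of 0.843, 0.42 and 0.655. Lyz2 has a near-identical copy, Lyz1, at 19.7 ± 7.86 TPM in CAC and 54.8 ± 31.5 TPM in Con at 8 weeks, and the split of shared reads between the 2 genes is uncertain.

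Against NCAC at 8 weeks, Retnla was the 1 gene of the 10 that passed, lower in CAC (log2 difference -1.78, SE 0.52, limma adjusted p = 0.0432), beside 10.3% of all genes higher and 1.47% lower (2.07% and 2.68% after rescaling). NCAC libraries read 1083, 183, 167, 597 and 1277 TPM, so that replicates 2 and 3 lay within the CAC range and the other 3 far above it. The call was lost without CAC replicate 1, 2, 4, 5 or 7 or NCAC replicate 1, 4 or 5 (adjusted p of 0.0551 to 0.0985). Cd163 exceeded NCAC by 1.56 (SE 0.49, limma adjusted p = 0.0528) and passed without CAC replicate 3 (0.0203) or NCAC replicate 1 (0.0441). With all 62 libraries in the fit, Cd163 (adjusted p = 0.000394) and Mrc1 (0.00567) passed beside Retnla. NCAC against Con at 8 weeks gave 0 calls among the 10 genes and 0% of all genes, with 0 of the 10 and 2101 of all genes at an unadjusted p under 0.05.

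Both NCAC libraries that overlapped CAC stood apart in other ways. NCAC replicate 2 of 8 weeks was the lowest of its group for 9 of the 10 genes, all but Retnla, with Tyrobp at 25.5 TPM where the other 4 lay between 94.8 and 151 TPM. NCAC replicate 3 was the highest of its group for Lyz2 (2429 TPM) and Adgre1 (33.7 TPM) but read 5.68 TPM for Cd163 and 8.92 TPM for Mrc1, and it held 49.9 TPM of Timd4, a gene of resident and body-cavity macrophages, where the other 4 held 3.21 to 14.9 TPM. Leaving both out, an alternative chosen after the values were seen, changed none of the calls of the 10 genes in the comparisons that hold them, and moved the shares of all genes called for CAC against NCAC to 6.95% higher and 6.64% lower.

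The difference between CAC and Con was more negative at 8 than at 6 weeks in all 10 genes, and none passed the adjusted limma threshold, where 0.192% of all genes did. At an unadjusted p under 0.05, 6 of the 10 and 1896 of all genes passed, and Cd68 passed the adjusted threshold without CAC replicate 4 of 8 weeks (adjusted p = 0.0444). The differences of effect ran from -1.16 for Cd68 (SE 0.32, limma adjusted p = 0.0983) to -0.06 for Cd163 (SE 0.43, adjusted p = 0.961), with -0.15 as the median of all genes.

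Csf1r (chromosome 18, 61100598 to 61132149, plus strand) holds the microRNA gene Mir6983 on its own strand and overlaps Hmgxb3 on the opposite one, and no source used here says whether the authors counted by strand, so reads from the overlap cannot be assigned to Csf1r alone. To ask which genes moved relative to this lineage receptor, each of the other 9 genes was divided by Csf1r within each library. Such a ratio does not depend on how a library is scaled apart from the pseudocount of 1 TPM, and it was compared between groups by a two-sided exact permutation test over libraries, adjusted over 36 tests. The same 3 genes passed in each of the 4 comparisons: Mrc1 and Cd163 were higher relative to Csf1r in CAC, and Retnla was lower. At 6 weeks the log2 ratio of Cd163 to Csf1r averaged -0.25 in CAC and -1.05 in Con, a difference of 0.81 (SE 0.11). For Mrc1 it averaged -0.13 in CAC and -0.60 in Con (difference 0.48, SE 0.07), and for Retnla 0.77 in CAC and 2.62 in Con (difference -1.85, SE 0.19). The groups did not overlap for any of the 3 (exact permutation p = 0.00794, the smallest that 5 against 5 libraries can give, adjusted p = 0.0238). Against NCAC the differences at 6 weeks were 0.74 for Cd163, 0.34 for Mrc1 and -2.19 for Retnla, again with no overlap and the same p.

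At 8 weeks the ratio to Csf1r was higher in CAC than in Con by 1.57 for Cd163 (SE 0.22) and 0.80 for Mrc1 (SE 0.12), and lower for Retnla (difference -2.06, SE 0.30). Mrc1 itself averaged 42.2 ± 16.2 TPM in CAC (SD, n = 7) and 32.9 ± 11.1 TPM in Con (SD, n = 5), and these groups overlapped. Csf1r averaged 35.6 ± 11.1 TPM in CAC and 49.0 ± 12.3 TPM in Con, and its groups overlapped too. The Mrc1 ratio thus combined a higher mean of Mrc1 with a lower mean of Csf1r in CAC. Neither gene alone passed the limma threshold against Con at 8 weeks. No CAC library overlapped a Con library in any of the 3 ratios (exact permutation p = 0.00126, the smallest that 7 against 5 libraries can give, adjusted p = 0.00909). Against NCAC the differences were 1.51 for Cd163, 0.89 for Mrc1 and -1.82 for Retnla, and the exact permutation adjusted p was 0.00909 for the first pair and 0.0227 for Retnla, whose groups overlapped. With NCAC replicates 2 and 3 left out these differences were 1.22, 0.65 and -2.30, each with no overlap and an adjusted p of 0.025. All 3 genes passed in all 4 comparisons whichever single library was left out. Adgre1 also passed against NCAC at 6 weeks without CAC replicate 3 (adjusted p = 0.0260, lower in CAC), and Lyz2 against Con at 8 weeks without CAC replicate 2 (adjusted p = 0.0238, higher in CAC).

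With Tyrobp in place of Csf1r as the denominator, chosen after the values were seen, the exact permutation test passed Cd163 and Retnla for CAC against Con at 6 weeks and Retnla alone against NCAC. Mrc1 did not pass at 6 weeks in either (adjusted p = 0.0612 in both), nor did Cd163 against NCAC (0.0519). At 8 weeks it passed Cd163, Mrc1 and Retnla against Con, and also Cd68, whose ratio to Tyrobp was lower in CAC by a log2 difference of -0.51 (SE 0.15, adjusted p = 0.0114). Against NCAC at 8 weeks it passed Cd163 and Mrc1 and not Retnla (adjusted p = 0.0612).

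Over the 4 weeks of sampling the mean log2 ratio of Cd163 to Csf1r in CAC was -0.98, -0.71, -0.25 and 0.14 at 2, 4, 6 and 8 weeks, while in Con it was -1.04, -1.0, -1.05 and -1.43. For Mrc1 it was -0.34, -0.28, -0.13 and 0.20 in CAC and -0.33, -0.42, -0.60 and -0.59 in Con. For Retnla it was 2.52, 1.84, 0.77 and 2.00 in CAC and 2.82, 2.35, 2.62 and 4.06 in Con. No test was made of the ratios at 2 and 4 weeks.

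**Figure D3:**
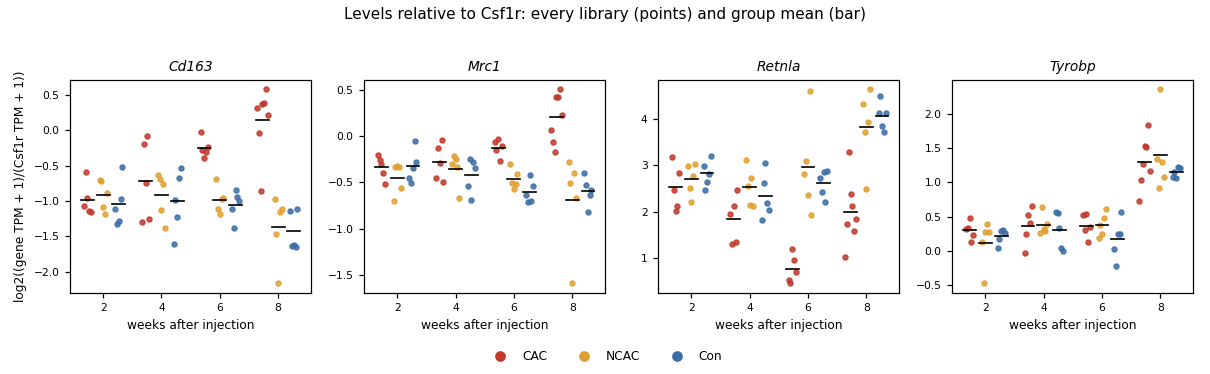
Log2 ratio of Cd163, Mrc1, Retnla and Tyrobp to Csf1r, each as TPM + 1, in each library by week and treatment; points are libraries and bars are group means. At 6 and 8 weeks the CAC libraries lie above the Con libraries for Cd163 and Mrc1 and below them for Retnla, and for Tyrobp the groups overlap.

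Some of the other macrophage genes were also higher at 6 weeks in CAC than in Con, to be read against 21.8% of all genes higher and 3.87% lower, or 10.3% each after rescaling. Of 19 further macrophage genes tested, 11 were higher in CAC than in Con and 0 lower by limma, with a median of 0.44, and among them were the complement gene C1qb (1.06, adjusted p = 3.32e-05), Lgals3 (1.47), which encodes galectin-3, Gas6 (0.88), a ligand for the receptors that clear dead cells, and C1qa (0.87). Of 11 genes of tissue-resident macrophages, 5 were higher and 2 lower: F13a1 (0.99), Vsig4 (1.21), Cbr2 (0.80) and Lyve1 (0.79) led those that were higher, and Ccl24 and Mgl2 were the lower pair. Of 9 genes of monocytes and recruited macrophages, 5 were higher and 0 lower, led by Plac8 (1.90) and Gpnmb (1.52). Of 16 partners in ITAM signalling, 6 were higher, led by the Fc receptor genes Fcgr2b (0.90) and Fcgr3 (0.72), with Pirb (0.57) and the kinase gene Syk (0.65), and 1 was lower. After rescaling the counts were 11 higher and 0 lower for the further macrophage genes, 5 and 2 for the resident genes, 4 and 0 for the monocyte genes and 4 and 1 for the ITAM partners. Neutrophil markers were higher too, in 4 of the 4 tested out of 12 listed. The other listed markers did not pass the filter and were not tested. The summed level of all 12 was 14.3 to 30.7 TPM in CAC against 5.16 to 14.1 TPM in Con. Adipocyte markers were higher in 5 of 8. The part of neutrophils in the rise of Lyz2 was not tested.

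Few genes of these lists passed at 8 weeks against Con. Of the 19 further macrophage genes, 0 were higher and 1, Cx3cr1 (-1.01, limma adjusted p = 0.0101), was lower. Of the 11 resident genes, 0 were higher and Ccl24 and Mgl2 were lower. Lists share genes: Ccl24 and Mgl2 also stand in the IL-4 and IL-13 list below, so those calls are not separate results. Of 9 monocyte genes, Plac8 was higher (3.41, SE 0.58) and Fn1 lower (-1.26). Plac8 ranged from 8.93 to 186 TPM with a median of 55.8 TPM in CAC, against 8.16, 3.39, 3.42, 1.74 and 4.73 TPM in Con, with no overlap. Of 5 dendritic cell markers, 3 were lower (Itgax, H2-Aa and H2-Ab1). Of all genes, 6.37% were higher and 6.05% lower. Without CAC replicate 3, a choice made after its values were seen, 1 further macrophage gene, 1 resident gene and 3 monocyte genes were higher, beside 9.22% of all genes.

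Retnla was set beside other genes of the IL-4 and IL-13 response in mouse macrophages, because those genes did not move as one. The list holds the receptor chains Il4ra and Il13ra1 and the factor gene Stat6, as well as genes that these cytokines induce. Of the 8 listed genes tested at 6 weeks, 4 were higher and 2 lower in CAC than in Con by limma (3 and 2 after rescaling). These counts stood beside 21.8% of all genes higher and 3.87% lower (10.3% each after rescaling). The 2 lower ones were Ccl24 (-0.65, SE 0.17, adjusted p = 0.0182), which encodes an eosinophil chemoattractant, and Mgl2 (-0.49, SE 0.15, adjusted p = 0.0375), a galactose-type lectin that was named after its value was seen. The related lectin Clec10a was higher, at 6.99, 7.06, 2.70, 7.00 and 5.05 TPM in CAC against 1.69, 2.18, 1.93, 1.36 and 1.54 TPM in Con. Its groups did not overlap (log2 difference 1.25, SE 0.20, limma adjusted p = 0.00125). The receptor chains Il4ra (1.36, SE 0.17, adjusted p = 0.000222) and Il13ra1 (1.14, SE 0.14, adjusted p = 0.000245) were higher as well.

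At 8 weeks Ccl24 and Mgl2 were the 2 genes of that list that passed, both lower in CAC, beside 6.05% of all genes. After rescaling Stat6 was lower too, and without CAC replicate 3 Il13ra1 was higher. Ccl24 ranged from 2.47 to 15.5 TPM with a median of 6.02 TPM in CAC, against 18.7, 63.7, 24.6, 15.6 and 30.3 TPM in Con. The groups just failed to overlap (log2 difference -1.87, SE 0.39, limma adjusted p = 0.0101). Mgl2 differed by -1.61 (SE 0.31, limma adjusted p = 0.00686), while Clec10a (0.80, adjusted p = 0.184) and Il4ra (0.01, adjusted p = 0.994) did not pass. The cytokine genes themselves were barely detected: Il4 reached at most 0.512 TPM and Il13 at most 0.224 TPM in any library, and neither was tested.

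**Figure D4:**
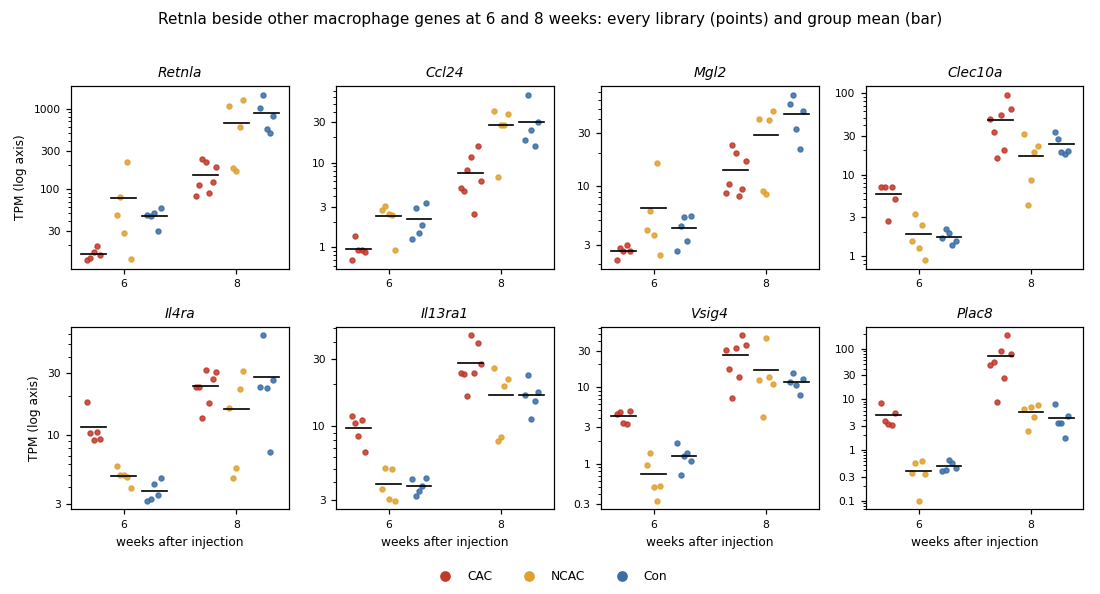
TPM (log axis) of Retnla, Ccl24, Mgl2, Clec10a, Il4ra, Il13ra1, Vsig4 and Plac8 in each library at 6 and 8 weeks, by treatment; points are libraries and bars are group means. CAC libraries lie below all Con libraries for Retnla in both weeks, and above them for Plac8 at 8 weeks and for Clec10a at 6 weeks.

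Mast cell markers moved with Retnla at 8 weeks. Of 8 mast cell markers, 7 were lower in CAC than in Con by limma and 0 higher, before and after rescaling, beside 6.05% of all genes lower and 6.37% higher (9.3% and 6.39% after rescaling). They had a median of -1.08 and a summed level of 86.2 to 210 TPM in CAC against 343 to 716 TPM in Con. Mcpt4, a mast cell protease gene, averaged 38.0 ± 15.4 TPM in CAC (SD, n = 7) and 173 ± 59.7 TPM in Con (SD, n = 5; log2 difference -2.20, limma adjusted p = 0.0014). At 6 weeks 1 of the 8 was lower, Mcpt4 (-0.95, adjusted p = 0.0201), and 1 higher, Hdc (0.58). Of all genes, 3.87% were lower and 21.8% higher at 6 weeks (10.3% each after rescaling). The part of mast cells in the values of Retnla was not tested.

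Cd163 was set beside the haem and iron genes because its ligand is haptoglobin bound to haemoglobin. Of 11 such genes, 5 were higher and 0 lower in CAC than in Con at 6 weeks by limma, before and after rescaling, beside 21.8% of all genes higher and 3.87% lower (10.3% each after rescaling). Hp, the haptoglobin gene, read 399, 385, 436, 724 and 264 TPM in CAC against 12, 5.15, 7.96, 10.9 and 13.3 TPM in Con (log2 difference 5.33, SE 0.26, adjusted p = 2.98e-07). Hmox1, which encodes the enzyme that breaks down haem and was named after its value was seen, was higher by 0.73 (adjusted p = 0.0183). At 8 weeks 2 of the 11 were higher, Hp (4.06, SE 0.63, adjusted p = 0.00276) and Cp (0.75), and the iron exporter Slc40a1 was lower (-0.52). Of all genes, 6.37% were higher and 6.05% lower in that comparison. After rescaling 2 of the 11 were higher and 1 lower, beside 6.39% and 9.3% of all genes. Erythroid markers gave 0 calls in 5 tested against Con at either week. Their summed level at 8 weeks was 1107 to 27333 TPM in CAC, with a median of 1944 TPM, against 2244 to 5526 TPM in Con. The highest value was in CAC replicate 3, the CAC library with the lowest Cd163, and the next highest CAC library was at 4130 TPM. Without that library 3 of the 11 haem and iron genes were higher and 2 lower, beside 9.22% and 8.32% of all genes. The part of that library in the other values was not tested.

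The growth factor receptor Csf2rb, a shared chain for GM-CSF, IL-3 and IL-5, was among the 3 higher of 9 macrophage growth factor and transcription factor genes at 6 weeks (2.22, SE 0.21, limma adjusted p = 3.18e-05), with Nr1h3 (0.53) and Irf8 (0.21). That count is near the 21.8% of all genes that were higher, and after rescaling it was 2 of 9, without Irf8, beside 10.3% of all genes. Csf1 and Il34, the ligands of Csf1r, read 8.27 ± 0.798 and 5.43 ± 0.982 TPM in CAC, against 6.93 ± 0.728 and 5.57 ± 0.852 TPM in Con at 6 weeks (SD, n = 5 each), and neither passed. At 8 weeks Csf2rb was still higher (1.48, SE 0.21, limma adjusted p = 0.0021) and Csf2ra, its partner in the GM-CSF receptor, was lower (-0.78, adjusted p = 0.0237). Of all genes, 6.37% were higher and 6.05% lower. After rescaling the calls were Csf2rb, Csf2ra and Il34, with 1 of 9 higher and 2 lower, beside 6.39% and 9.3% of all genes.

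Ordered by group mean, 7 of the 10 genes were highest in Con at 8 weeks, Lyz2 in NCAC at 8 weeks, and Mrc1 and Cd163 in CAC at 8 weeks. The highest group mean was from 9.05 times the lowest for Csf1r to 56.3 times for Retnla. Between neighbours in the order of the 12 groups, intervals of 1 SD overlapped in 10 of 11 pairs for 8 genes and in all 11 pairs for Cd68 and Cd163. For Retnla the separate pair was CAC at 4 weeks (36.6 ± 4.11 TPM) and CAC at 6 weeks (15.7 ± 2.49 TPM, SD, n = 5 each), the lowest group of all.

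The genes whose 12 centred group means lay nearest to the average of the 10 were Ly86, Pi16, Pld4, Anxa1, Folr2, Lrrn4cl, Scara5, Ecm1, S100a10 and Rgs10, at root mean square differences of 0.09 to 0.17 on the log2(TPM + 1) scale. By the same measure the nearest outside gene was Cd48 for Adgre1, Ptafr for Cd68, Laptm5 for Csf1r, Fcgr3 for Lyz2 and Tyrobp, Ncf1 for Mrc1, Ifi204 for Cd163, Ctss for Fcer1g, Folr2 for Pf4 and Mcpt4 for Retnla. Retnla and its nearest gene were still 0.33 apart, and among the 10 genes Retnla (0.73) and Cd163 (0.47) lay farthest from the average. These distances describe 12 group means that share libraries and a common rise at 8 weeks.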

How the data were processed

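The deposited table gives the authors' TPM values (relative transcript abundance, normalized for gene length and library total) for 47643 genes in 62 libraries of mouse soleus. The labels' protocols describe a stranded mRNA kit, and the submitters' processing notes name the mm10 build. The aligner and quantifier were not given in the sources used here. Since no read depth survives in TPM, counting intervals were not computed. From these values, log2(TPM + 1) was fitted with limma 3.58.1 in R 4.3.3 (trended empirical Bayes), using the libraries of the groups compared and the 13529 genes with at least 1 TPM in at least 5 libraries. Adjusted p-values are Benjamini-Hochberg over all genes tested, with a threshold of 0.05, over 18 comparisons. A fold change on this scale understates the change of low genes. Ratios to Csf1r were compared by exact permutation over libraries. Alternatives were a pseudocount of 0.1, no filter, median-of-ratios rescaling, a fit of all 62 libraries, a replicate block and each library left out. List counts after rescaling and without CAC replicate 3 of 8 weeks, Tyrobp as denominator, and NCAC replicates 2 and 3 of 8 weeks left out were added after the values were seen. Methods were tested on simulated data. The members, lists and tests were chosen with earlier results of these data known. All 10 members are named, with up to 4 genes of each list by smallest adjusted p, and others where a result turned on them. Positions are from GENCODE and promoters from RefSeq. Labels call the libraries biological replicates, and no 2 libraries were identical. Same-numbered libraries deviated together in 0 of 12 pairs of groups by a correlation over 0.1 in every pair, so the numbers were not treated as pairing.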

Additional observations from a re-analysis of the deposited data

Results flagged for a closer look

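In 5 of 120 groups of values, 1 library lay far from the others of its group by Dixon's criterion on the log2(TPM + 1) scale. By chance about 1 of 20 groups meets that criterion. The values are given here in TPM, on which the criterion can pick out other groups. In Con replicate 4 of 2 weeks, Csf1r was 2.58 TPM where the other 4 libraries lay between 5.54 and 6.73 TPM, and Lyz2 was 28.4 TPM where the others lay between 58.1 and 65.2 TPM. In CAC replicate 3 of 6 weeks, Cd163 was 4.89 TPM where the others lay between 7.42 and 8.56 TPM. In Con replicate 5 of 6 weeks, Tyrobp was 11 TPM where the others lay between 6.57 and 7.41 TPM. In NCAC replicate 2 of 8 weeks, Tyrobp was 25.5 TPM where the others lay between 94.8 and 151 TPM.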

How the results depend on the processing

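Counts below are of the 10 macrophage genes called by limma, or of the 9 ratios to Csf1r passing the exact permutation test. With no filter the count was 2 for CAC against NCAC at 6 weeks, 1 for CAC against Con and 0 for CAC against NCAC at 8 weeks, and 5 for CAC at 6 against 2 weeks. Under rescaling it was 4 for CAC against Con and 3 for CAC against NCAC at 6 weeks, and 5 for CAC at 6 against 2 weeks. With all 62 libraries in the fit it was 3 and 3 at 6 weeks, 3 for CAC against Con and 3 for CAC against NCAC at 8 weeks, and 1 for CAC at 6 against 2 weeks. With the replicate block, which the numbers do not support as a pairing, it was 0 for CAC against NCAC at 8 weeks, and 0 ratios passed in each of the 4 comparisons, where 5 pairs cannot give a p below 0.0625. Smaller changes occurred too. For CAC against Con at 6 weeks, Csf1r (limma adjusted p = 0.0670) and Pf4 (0.0526) lost their calls with no filter. Adgre1 (0.0511) and Pf4 (0.0722) did so with the replicate block. That block also ended the calls of Csf1r (0.0867) and Tyrobp (0.0514) for CAC at 6 against 2 weeks. It added Adgre1 (0.0472), lower in CAC, against Con at 8 weeks. With Tyrobp as denominator 1 ratio passed for CAC against NCAC at 6 weeks. Leaving out single libraries gave 0 to 2 calls for NCAC against Con at 2 weeks, 5 to 8 for CAC against Con and 2 to 6 for CAC against NCAC at 6 weeks, 1 to 3 and 0 to 2 for the same pairs at 8 weeks, 5 to 8 for CAC at 6 against 2 weeks, 9 to 10 for NCAC at 8 against 6 weeks, 0 to 2 and 0 to 1 for the differences of effect at 6 minus 2 and 8 minus 6 weeks, and 3 to 4 ratios. No value changed sign while called. Apart from fewer samples or pairs, the cause was not tested. The unknown read depth limits what can be said of genes near 1 TPM.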
